A study of Bos taurus with 12 samples.

Results

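The 12 libraries were grouped by a measured value, the raw read count of a single gene, BOLA-DQB (ENSBTAG00000021077), which encodes the beta chain of a bovine MHC class II molecule. Libraries with 1000 or more raw counts of this gene were selected as high and those with fewer as low, so the members were chosen by the BOLA-DQB count itself. This gave 4 high and 8 low libraries of 12 in all. Each library is the poly(A) RNA of peripheral white blood cells (PWBCs) from 1 crossbred Simmental-Angus heifer, bled from the jugular vein 2 days before artificial insemination (AI), and all animals went through the same synchronization of estrus with GnRH, a progesterone-releasing device and prostaglandin. The 6 heifers labelled Pregnant (fertile) conceived to the first AI, and the 6 labelled Open (subfertile) remained non-pregnant after AI and natural service. The high libraries are LM1247, LM1262, LM1286 and LM1298, which are Pregnant replicates 2 to 5. The low libraries are LM1244 and LM1330, which are Pregnant replicates 1 and 6, and the 6 Open libraries LM1246, LM1251, LM1259, LM1265, LM1283 and LM1313, which are Open replicates 1 to 6. No subfertile library was high, so over the 12 libraries the BOLA-DQB state largely coincides with the fertility label and differs from it in LM1244 and LM1330 only. The 4 high libraries were therefore also compared with these 2 low fertile libraries alone.

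MHC class II molecules are pairs of an alpha and a beta chain that carry peptides from engulfed proteins to the surface of B cells, monocytes and dendritic cells, where CD4 T cells read them. In cattle the classical pairs are the DR and DQ molecules. The DQ genes differ in sequence and in number between haplotypes, and the DO molecule, to which BOLA-DOA contributes the alpha chain, regulates the loading of peptides. Because class II genes have close copies and many alleles, counting can split or drop reads between them, and the count of any one class II gene is uncertain to that extent.

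The BOLA-DQB count fell into widely separated ranges. The high libraries held 4437 counts in LM1247, 5676 in LM1262, 7835 in LM1286 and 8577 in LM1298. The 2 low fertile libraries held 2 counts in LM1244 and 8 in LM1330. Among the subfertile libraries, LM1246 held 442 counts, LM1259 held 211, LM1313 held 61 and LM1283 held 28, while LM1251 and LM1265 held none. A count of 0 allows up to 3 counts, which is 0.214 CPM in LM1251 and 0.213 CPM in LM1265. The values nearest the threshold were therefore 4437 counts inside and 442 counts outside. In CPM, which are counts scaled to a common library size with TMM, the high libraries averaged 369 ± 37.4 (SD, n = 4) and the low libraries 4.70 ± 7.50 (SD, n = 8), a 78.5-fold ratio of the means. These values set the groups and were not tested.

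ENSBTAG00000038128, which has no symbol in the tables used here, was on where BOLA-DQB was on. The pathway lists of the supplementary tables place it in the 7 KEGG pathways that also hold BOLA-DQB and BOLA-DOA, among them antigen processing and presentation, cell adhesion molecules and Th1 and Th2 cell differentiation. Its counts in the high libraries were 3746 in LM1247, 4915 in LM1262, 8124 in LM1286 and 7250 in LM1298. The 2 low fertile libraries and the subfertile libraries LM1251 and LM1265 had 0 counts. The other subfertile libraries had 843 counts in LM1246, 780 in LM1259, 2934 in LM1283 and 836 in LM1313. Every high library thus lay above every low library, and the low libraries themselves fell into 4 without a single count and 4 with 780 to 2934.

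The high libraries averaged 333 ± 54.4 CPM of ENSBTAG00000038128 (SD, n = 4), which was 6.72-fold the subfertile mean of 49.5 CPM. Against the low fertile libraries, taken at the 3 counts that a count of 0 allows in each library (0.170 CPM), the gene was at least 1958-fold higher. Among the fertile libraries it was called with an adjusted P of 0.000104 (edgeR quasi-likelihood test, Benjamini-Hochberg adjustment). Leaving out any 1 of the 6 fertile libraries gave an adjusted P between 8.74e-05 and 0.00198. The two-sided exact permutation test of mean log2 CPM gave P = 0.0667, the smallest value that 4 against 2 libraries allow. Over all 12 libraries the log2FC was 3.16 ± 1.27 (SE), with an unadjusted edgeR P of 0.0255, an adjusted P of 0.9997 and an exact permutation P of 0.0283. That difference thus passed the unadjusted thresholds and not the adjusted one. Its size depended on the method, with a log2FC of 7.59 and an unadjusted P of 0.000249 in voom. With the fertility label as a second term the unadjusted edgeR P was 0.00175, and the fitted log2FC of 15.5 then rests on the low fertile libraries at 0 and is not a measure of size. Over the 12 libraries DESeq2 gave no P for this gene, and among the fertile libraries it called it with an adjusted P of 1.3e-20.

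The counts of the 2 transcripts are also given relative to each other, as a description only, since the BOLA-DQB count by which the groups were chosen is the denominator. In the high libraries, ENSBTAG00000038128 had 0.844 to 1.04 counts for each BOLA-DQB count. In the subfertile libraries with both transcripts, that number was 1.91 in LM1246, 3.70 in LM1259, 13.7 in LM1313 and 105 in LM1283. The 4 libraries with no count of ENSBTAG00000038128 had 0 to 8 counts of BOLA-DQB. The libraries fall into separate clusters, so no correlation between the genes is given.

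Of all genes in the count table, 17 had at least 500 counts in 1 library and at most 10 in another. BOLA-DQB is 1 of these 17, and it separated the high from the low libraries because its count set the groups. Of the others, ENSBTAG00000038128 alone had counts that separated the high from the low libraries. ENSBTAG00000009656, named here after its values were seen, was also on in some libraries and at 0 in others. It had 4053 counts in LM1262 and 5023 in LM1286, but 0 in the high libraries LM1247 and LM1298. It was at 0 in both low fertile libraries and in LM1251 and LM1265, while LM1246 had 83 counts, LM1259 had 3936, LM1283 had 7091 and LM1313 had 4903. The 4 libraries without ENSBTAG00000038128 thus also had no count of this gene, and the high libraries were divided 2 against 2. Its log2FC between high and low libraries was 0.14 with an unadjusted edgeR P of 0.939. Among the fertile libraries it passed both unadjusted thresholds, with an edgeR P of 0.0409, and DESeq2 called it with an adjusted P of 3.4e-06. The exact permutation P there was 0.467. The fitted log2FC there rests on low fertile libraries at 0 and is not a measure of size.

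**Figure D1:**
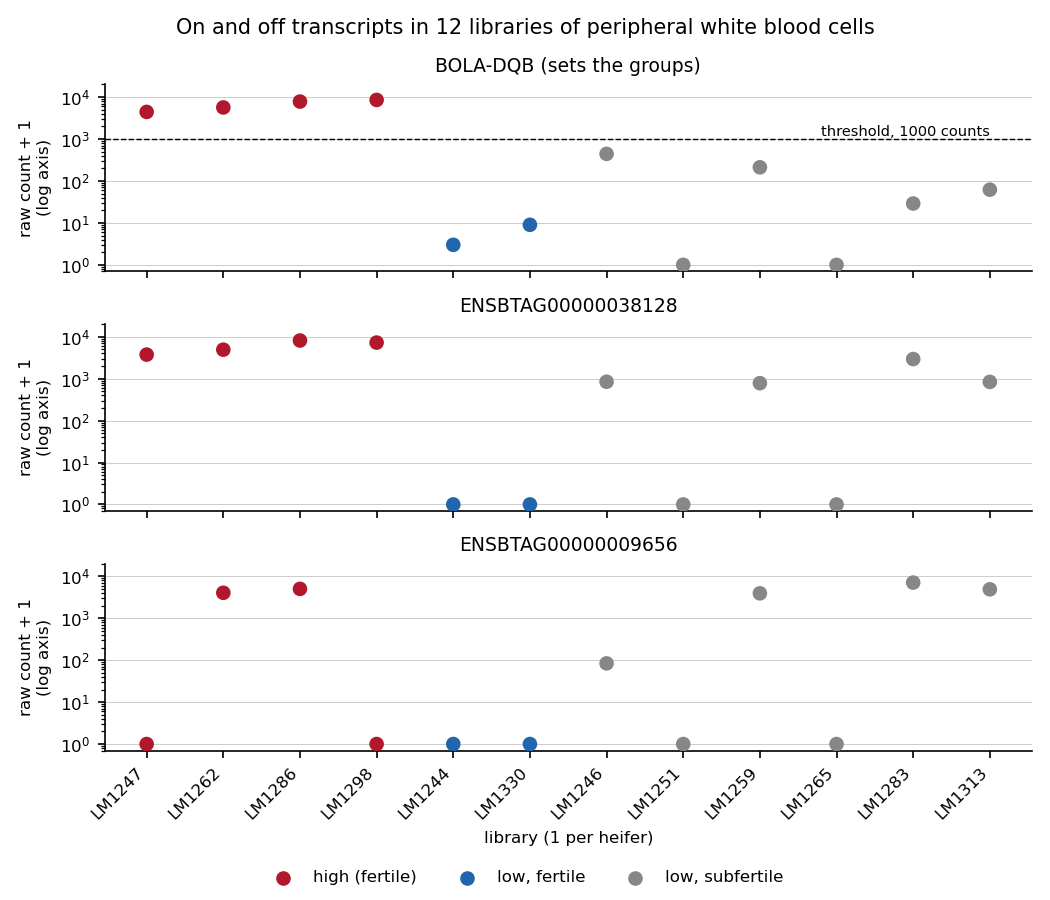
Raw counts plus 1, on a log axis, of BOLA-DQB, ENSBTAG00000038128 and ENSBTAG00000009656 in each of the 12 libraries, with 1 point per heifer coloured by BOLA-DQB state and fertility. The 4 high libraries lead in the upper 2 panels, where LM1244, LM1330, LM1251 and LM1265 have at most 8 counts, and are divided 2 against 2 in the lowest panel. The BOLA-DQB count set the groups.

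The 3 other genes listed in all 7 of these pathways were detected in every library. Of 17 listed class II alpha and beta chains, only BOLA-DQB has a symbol in the tables used here, so the DR chains and the DQ alpha chains are not named. BOLA-DOA had 213 CPM in LM1247, 228 in LM1262, 268 in LM1286 and 254 in LM1298. It had 211 CPM in LM1244 and 205 in LM1330, and over the 8 low libraries its lowest, median and highest levels were 162, 207 and 268 CPM. The groups overlapped, with a log2FC of 0.22 ± 0.14 (SE) and an unadjusted edgeR P of 0.138.

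Of the unnamed genes listed in the same 7 pathways, ENSBTAG00000019588 had 1414, 1070, 1264 and 1753 CPM in LM1247, LM1262, LM1286 and LM1298. It had 875 CPM in LM1244 and 999 in LM1330, and the low libraries ranged from 587 to 1480 CPM with a median of 976. Its log2FC was 0.48 ± 0.20 (SE) with an unadjusted edgeR P of 0.0303, which lay just under the fold threshold of 0.5. Among the fertile libraries alone its log2FC was 0.55 with an unadjusted edgeR P of 0.0368. The exact permutation P was 0.0525 over the 12 libraries and 0.133 among the fertile ones. With the fertility label as a second term it did not pass, with an unadjusted edgeR P of 0.0889. Both fertile low libraries were below the lowest high library, while the subfertile libraries reached into the high range.

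ENSBTAG00000037605 had 1162, 697, 786 and 1514 CPM in the same high libraries and from 622 to 1373 CPM, with a median of 859, in the low ones. Its log2FC was 0.21 ± 0.23 (SE) over the 12 libraries and -0.24 among the fertile libraries. Neither value passed the test, with unadjusted edgeR P of 0.370 and 0.456. Besides BOLA-DQB, whose count set the groups, ENSBTAG00000038128 thus separated them. The 3 other genes from the same pathways had levels that overlapped between the groups.

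**Figure D2:**
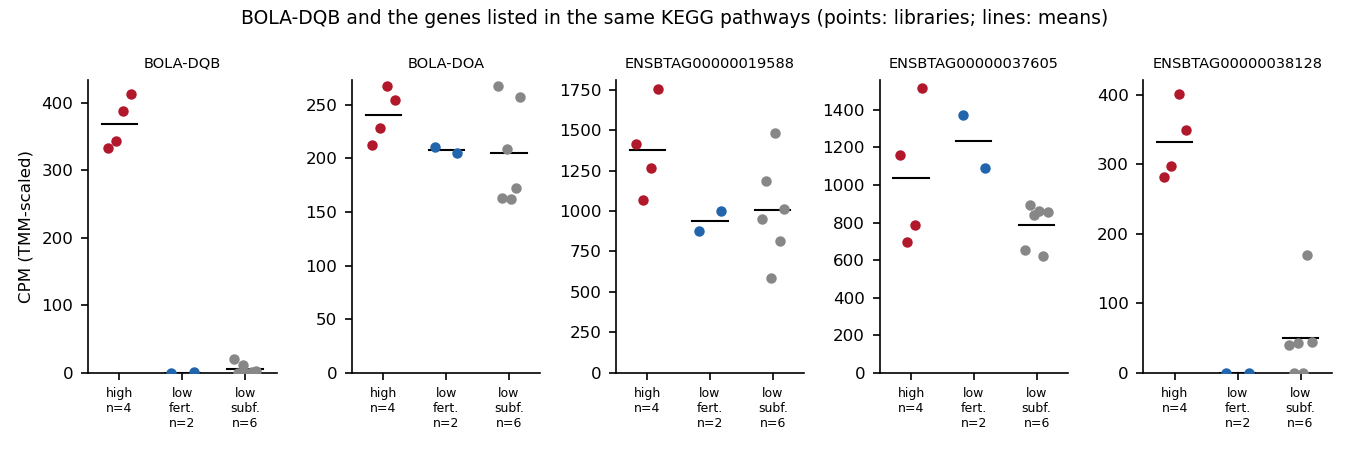
TMM-scaled CPM of BOLA-DQB and of the 4 genes listed in the same 7 KEGG pathways, by group, with a point for each library and a line at the group mean. BOLA-DOA, ENSBTAG00000019588 and ENSBTAG00000037605 overlap between the groups, whereas ENSBTAG00000038128 does not, nor does BOLA-DQB, whose count set the groups.

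The supplementary tables list 18 tested genes besides BOLA-DQB under antigen processing and presentation. They were listed there as leading genes of a pathway test on these same samples, so they are not independent evidence of a direction. Of these 18 genes, 2 were higher in the high libraries at an unadjusted P of 0.05 or less and an absolute log2FC of 0.5 or more, none was lower, and their median log2FC was 0.21. Over all 13011 genes tested, 1.31% passed these thresholds, 0.553% higher and 0.753% lower, and the median log2FC was -0.01. Of the same 18 genes, 2 were higher and 3 lower among the fertile libraries, beside 1.40% and 1.74% of all genes tested, and their median log2FC was -0.13. The 2 higher ones there were ENSBTAG00000038128 and ENSBTAG00000019588. The 3 lower ones were ENSBTAG00000046979, ENSBTAG00000049367 and ENSBTAG00000052514. Their log2FC were -1.02, -1.80 and -1.11, with unadjusted edgeR P of 0.0448, 0.0102 and 0.0179. Over the 12 libraries the 2 higher genes were ENSBTAG00000038128 and ENSBTAG00000046389. The latter averaged 16.2 ± 8.33 CPM (SD, n = 4) in the high and 8.87 ± 3.25 CPM (SD, n = 8) in the low libraries. Its log2FC was 0.86 with an unadjusted edgeR P of 0.0326, and its exact permutation P was 0.121. It did not pass among the fertile libraries, with an unadjusted edgeR P of 0.174, nor with the fertility label as a second term (0.201). Its high libraries ranged from 6.12 to 25.6 CPM and overlapped the low ones.

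For peptide loading few genes could be examined. Of 23 listed genes of class II loading and regulation, 6 had a symbol and all 6 were tested, and none passed the P and fold thresholds that 1.31% of all genes passed, too few genes to set them apart from that share. RFXANK, a factor of the complex that switches on class II promoters, had a log2FC of 0.15, and NFYA and NFYC, which bind the same promoters, had 0.03 and 0.02. CTSS and CTSH, proteases of the endosome in which class II molecules are loaded, had log2FC of -0.04 and 0.21. CTSH was called at the unadjusted thresholds among the fertile libraries, with a log2FC of 0.54 and an edgeR P of 0.0468, beside 3.14% of all genes tested. Of 26 listed genes of class I and its loading, 4 were tested and none was called. TAP1 and TAP2, the peptide transporter, had log2FC of 0.03 and -0.02, TAPBP, which bridges the transporter to class I molecules, had 0.04, and PSME1, an activator of the proteasome, had -0.01.

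The named genes nearest to BOLA-DQB were also compared. In the gene order of the ARS-UCD2.0 annotation, the 20 nearest named and tested genes on each side were examined, and 0 of these 40 passed the P and fold thresholds or were without overlap between high and low, beside 1.31% and 0.192% of all genes tested. So few calls among 40 genes are near those shares. Only 83 other named genes of chromosome 23 were tested, so these 40 reach well beyond the close surroundings of BOLA-DQB. Genes without a symbol were left out of this comparison, also any that lie nearer to BOLA-DQB. The median log2FC of the 40 genes was 0.00. TNXB, which encodes an extracellular matrix protein and is the nearest of them on one side, had a log2FC of 0.41 with an unadjusted edgeR P of 0.100. ELOVL5, a fatty acid elongase and the nearest on the other side, had a log2FC of -0.34 with a P of 0.0686. Against the 2 low fertile libraries alone, 1 of the 40 genes was higher and 1 lower, beside 1.40% and 1.74% of all genes tested. These were TNXB, with a log2FC of 0.70 and an edgeR P of 0.0072, and GSTA4, a glutathione transferase, with -0.81 and 0.0171.

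Across the other 13011 genes tested, edgeR called none between the high and low libraries after adjustment, at a threshold of 0.05 (0%), and DESeq2 and voom with limma also called 0. At an unadjusted P of 0.05 or less, edgeR had 278 genes (2.14%), DESeq2 331 and voom 280. Evenly spread P-values would give 651. Both thresholds were passed by 170 genes, 72 higher and 98 lower in the high libraries, and 12 of the 170 did so without any overlap between the groups. Leaving out 1 library at a time gave 139 to 247 genes.

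Among the 6 fertile libraries, the single gene called after adjustment (0.00769%) was ENSBTAG00000038128, and voom with limma called the same single gene. DESeq2 called 19. Unadjusted, 618 genes (4.75%) had a P of 0.05 or less, and 409 (3.14%) also passed the fold threshold, 182 higher and 227 lower. These counts rested on the 2 low libraries. Without LM1244 the adjusted calls were 227 and those at P and fold 1211, and without LM1330 they were 27 and 1550. In both cases a single low library was left and was assumed to vary like the high ones.

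**Figure D3:**
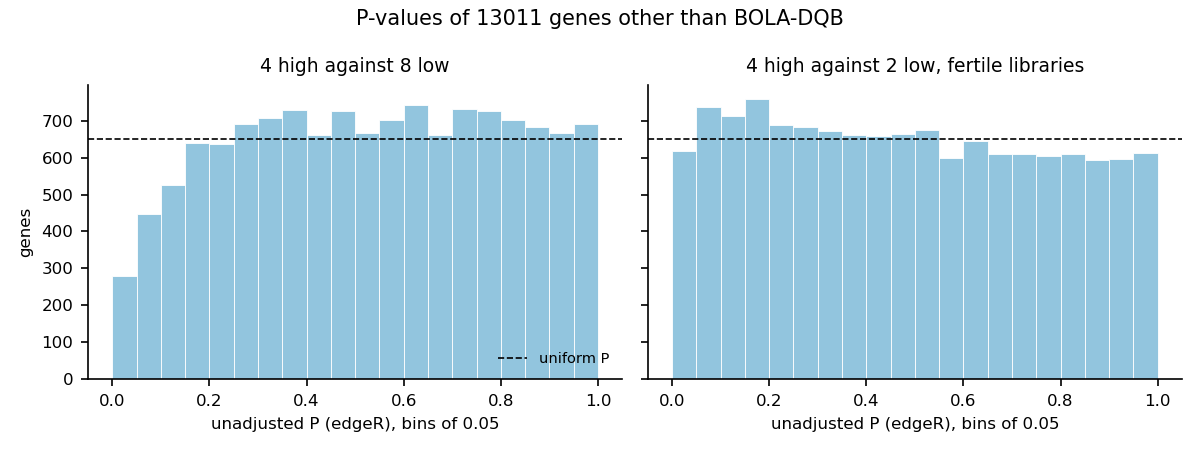
Number of genes in each bin of 0.05 of the unadjusted edgeR P, for 4 high against 8 low libraries and for 4 high against the 2 low fertile libraries, with a dashed line at the 651 genes per bin of an even spread. The lowest bin holds 278 genes in the first comparison and 618 in the second.

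The 8 genes on either side with the smallest P among those past the fold threshold were low or moderate in level, and none passed the adjusted threshold over 12 libraries. ENTPD8, an enzyme that breaks down nucleotides outside the cell, led those higher in the high libraries. It had 8.94 CPM in LM1247, 6.72 in LM1262, 7.81 in LM1286 and 4.05 in LM1298. It had 1.48 CPM in LM1244 and 2.24 in LM1330, and the low libraries ranged from 0.885 to 4.11 CPM with a median of 1.94. LM1298 alone lay within the range of the low libraries. The log2FC was 1.66 ± 0.38 (SE), the unadjusted edgeR P was 0.000588 and the exact permutation P was 0.00606, and among the fertile libraries the log2FC was 1.89 with an unadjusted edgeR P of 0.00229.

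The other 7 genes in this direction had log2FC between 0.52 and 1.91. APBB1, an adaptor that binds the amyloid precursor protein, had 7.66, 4.73, 5.39 and 9.35 CPM in the high libraries and from 2.63 to 5.65 CPM in the low ones, with a median of 3.75. Its log2FC was 0.88 ± 0.25 (SE), but the low fertile library LM1244 was at 5.65 CPM, above the high libraries LM1262 and LM1286. APBB1 did not pass the test among the fertile libraries, with a log2FC of 0.70 and an unadjusted edgeR P of 0.139, nor with the fertility label as a second term (0.0896). In ENSBTAG00000018926, with 1.58 to 4.94 CPM in 3 high libraries and 0.289 CPM in LM1298, the log2FC of 1.91 was 1.09 without LM1286 and no longer passed the test. ENSBTAG00000016770, with a log2FC of 0.52, no longer passed the thresholds without LM1262 (0.35), LM1330 (0.47), LM1251 (0.49) or LM1259 (0.497). IFITM3 (ENSBTAG00000019015), a membrane protein that restricts virus entry, had 2.03, 0.424, 3.61 and 2.12 CPM, against a range of 0.280 to 1.14 CPM in the low libraries. Its log2FC was 1.57 ± 0.47 (SE), and LM1262 lay below the low median of 0.706 CPM. It too did not pass among the fertile libraries, with a log2FC of 1.58 and an unadjusted edgeR P of 0.0880, nor with the fertility label as a second term (0.0617). A second gene with the symbol IFITM3 (ENSBTAG00000052306) averaged 5.17 ± 1.61 CPM (SD, n = 4) in the high and 3.04 ± 0.779 CPM (SD, n = 8) in the low libraries. It had a log2FC of 0.77 and an unadjusted edgeR P of 0.00933. This second gene did not pass among the fertile libraries, with a log2FC of 0.65 and an unadjusted edgeR P of 0.120. With the fertility label as a second term it did not pass either (0.118). These genes are close copies, so their reads may be divided between them. The unnamed ENSBTAG00000031186 had 14.7 to 19.4 CPM in the high and 7.18 to 14.2 CPM in the low libraries, without overlap.

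WC1-12 was among the genes lower in the high libraries. It belongs to the WC1 family of scavenger receptors, which mark gamma delta T cells in cattle. It had 20.5 CPM in LM1247, 24.6 in LM1262, 19.1 in LM1286 and 18.9 in LM1298. The low fertile libraries had 50.2 CPM in LM1244 and 29.4 in LM1330, and the 8 low libraries ranged from 22.2 to 63.9 CPM with a median of 47.5. The high libraries were close together, and LM1262 alone reached the low range. The log2FC was -1.02 ± 0.26 (SE) with an unadjusted edgeR P of 0.00168 and an exact permutation P of 0.0121. Among the fertile libraries the log2FC was -0.94 with an unadjusted edgeR P of 0.00349. WC1 itself averaged 39.4 ± 22.9 CPM (SD, n = 4) in the high and 60.4 ± 31.0 CPM (SD, n = 8) in the low libraries. Its log2FC of -0.61 did not pass the test, with an unadjusted edgeR P of 0.168. The members of this family are alike in sequence, and their counts are uncertain where reads fit more than one.

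The other 7 genes in this direction had log2FC between -2.06 and -0.58. CCDC183 had 1.58, 2.42, 1.78 and 1.301 CPM in the high libraries and from 2.46 to 6.65 CPM in the low ones, without overlap. Its log2FC was -1.12 ± 0.30 (SE), and its exact permutation P of 0.00202 is the smallest that 4 against 8 libraries allow. ENSBTAG00000016804, the most abundant of the 8, had 124 to 154 CPM in the high and 155 to 293 CPM in the low libraries. ENSBTAG00000033197 had 0.727 to 1.01 CPM against 1.24 to 2.904 CPM, and ENSBTAG00000019008 had 0 to 0.376 CPM against 0.602 to 1.81 CPM. Levels this low rest on few reads.

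**Figure D4:**
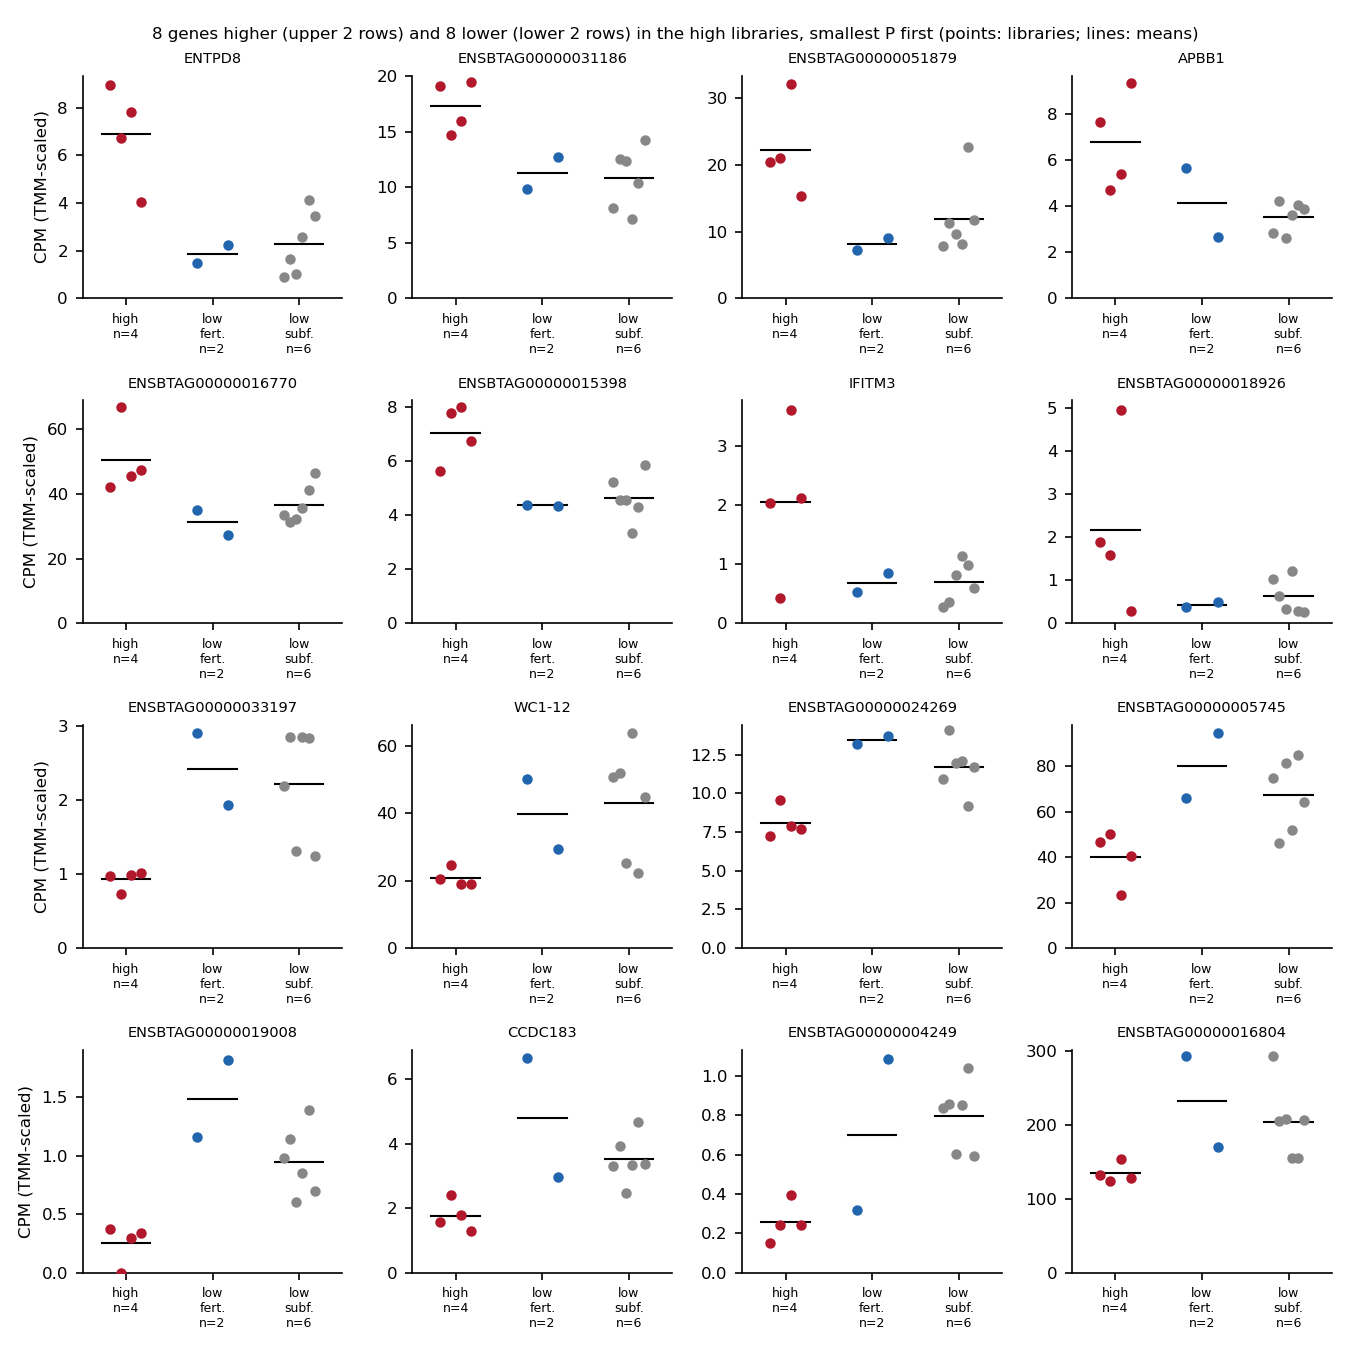
TMM-scaled CPM of the 8 genes on either side with the smallest unadjusted edgeR P among those with an absolute log2FC of 0.5 or more, with a point for each library and a line at the group mean. The groups do not overlap for ENSBTAG00000031186, ENSBTAG00000033197, ENSBTAG00000019008, CCDC183 and ENSBTAG00000016804, and overlap by at least 1 library for the others.

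Without any overlap between the groups were 25 genes (0.192% of those tested), 11 higher (0.0845%) and 14 lower (0.108%) in the high libraries. A random split into 4 and 8 libraries would separate a gene in a given direction in 1 of 495 cases, and both shares are below that. Separation of a single gene is therefore no sign that it goes with the BOLA-DQB state. FAM118A, named here after its values were seen, had 85.0, 84.4, 87.7 and 83.9 CPM in the high libraries. In the low libraries it ranged from 37.9 to 80.4 CPM with a median of 55.9, so the high libraries varied far less among themselves than the low ones. Its log2FC was 0.60, with an unadjusted edgeR P of 0.00837. It was under the fold threshold among the fertile libraries, with a log2FC of 0.48, and did not pass with the fertility label as a second term, where the unadjusted edgeR P was 0.127. CBY1, an inhibitor of beta-catenin signalling, had 31.6 to 40.3 CPM against 23.1 to 30.4 CPM, and DDX49, an RNA helicase, had 18.6 to 20.02 CPM against 14.1 to 18.3 CPM. TRIM24, a chromatin reader, was lower, with 20.1 to 22.96 CPM against 23.1 to 31.9 CPM. The log2FC of CBY1, DDX49 and TRIM24 lay within the fold threshold, at 0.34, 0.18 and -0.25. Leaving out 1 library at a time gave 30 to 85 genes without overlap. With fewer libraries to separate, this count can hardly fall, so the rise is no measure of stability or of the part of any library. The count was 72, 75, 81 and 85 without LM1247, LM1262, LM1286 and LM1298, and 63, 39, 44, 68 and 38 without LM1330, LM1251, LM1265, LM1283 and LM1313.

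Of the 170 genes that passed both unadjusted thresholds, 51 have a symbol, 23 of them higher and 28 lower in the high libraries. The following were chosen after their values were seen, for what they are known to do. SOCS1, a brake on cytokine signalling, had a log2FC of 0.97 and HES1, a target of Notch signalling, had 0.68. IL1RL1, the receptor of IL-33, averaged 1.23 ± 0.407 CPM (SD, n = 4) in the high and 2.88 ± 1.81 CPM (SD, n = 8) in the low libraries, with a log2FC of -1.21, and KLRA1, a lectin-like receptor of NK cells, had -1.07. In the fertile comparison HES1 passed both unadjusted thresholds, with a log2FC of 1.39 and an edgeR P of 0.0152. SOCS1, IL1RL1 and KLRA1 did not pass there, with log2FC of 0.80, -0.32 and -0.75 and unadjusted edgeR P of 0.158, 0.556 and 0.186. In the cell cycle list, 4 of 20 genes were tested and none was called, beside 1.31% of all genes tested, with log2FC of -0.43 for MKI67, -0.62 for TOP2A, -0.68 for BUB1B and -0.52 for RRM2. The summed level of these 4 was 116 to 192 CPM in the high libraries and 144 to 545 CPM in the low ones, and the highest value was that of the subfertile library LM1259. Among the fertile libraries the median log2FC of these 4 was 0.05, against -0.57 over all 12. Outside that list, the cell cycle genes ANLN, MCM10, DLGAP5, CENPH and SGO2 were called lower. Their log2FC were -1.07, -0.70, -0.85, -0.59 and -0.52. They did not pass among the fertile libraries, with unadjusted edgeR P between 0.0990 (ANLN) and 0.450 (SGO2). They too were named after their values were seen, and no test of them as a set was run. The part of LM1259 in the values of these genes was not tested.

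The genes SNCB, LRATD1 and ENSBTAG00000047029, which vary strongly between these heifers, overlapped between the BOLA-DQB states. LRATD1 had 16.8 CPM in LM1247 and 11.4 in LM1262, but 0.247 in LM1286 and 0.289 in LM1298, and the low libraries ranged from 0.109 to 3.88 CPM. Its log2FC of 2.71, with an unadjusted edgeR P of 0.00979, thus rested on 2 of the 4 high libraries and was 1.87, no longer past the P threshold, without LM1247, and the exact permutation P was 0.289. SNCB, a synuclein, had 2.705, 2.06, 7.41 and 23.1 CPM in the high libraries, and among the low ones 63.7 CPM in LM1330 and at most 5.05 CPM in the others. Its log2FC was -0.20 with an unadjusted edgeR P of 0.854. ENSBTAG00000047029 had 2.99 to 10.96 CPM in the high libraries, 3.54 CPM in LM1244, 7.07 in LM1330 and up to 90.8 CPM in the subfertile ones. Its log2FC was -2.82 over the 12 libraries and 0.01 among the fertile ones.

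Markers of blood cell types were compared between the groups, as far as the tables name them. Fewer cells of a type and less RNA per cell cannot be told apart in bulk RNA. The B cell markers CD79A, part of the B cell receptor, and PAX5, the factor that sets B cell identity, had log2FC of 0.23 and 0.29, with unadjusted edgeR P of 0.250 and 0.317. Their summed level was 532 to 750 CPM in the high and 367 to 714 CPM in the low libraries. The 6 T cell markers tested, CD3E and CD4 among them, had log2FC between -0.05 and 0.20 and summed to 1231 to 1636 CPM in the high and 937 to 2018 CPM in the low libraries. The 6 monocyte markers summed to 152 to 494 CPM in the high and 175 to 375 CPM in the low libraries, and the 3 dendritic cell markers to 32.4 to 42.4 and 30.9 to 63.4 CPM. None of these 17 markers passed the P and fold thresholds, beside 1.31% of all genes tested, and so few genes cannot be set apart from that share. The summed levels overlapped between the groups, and the part of cell composition in the other results was not tested.

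Of 5 NK and cytotoxic markers, GZMB, a granule protease, was higher in the high libraries. It had 19.2 CPM in LM1247 and 16.4 in LM1298 but 3.33 in LM1262 and 3.95 in LM1286, and the low libraries ranged from 2.56 to 8.44 CPM. Its log2FC of 1.09, with an unadjusted edgeR P of 0.0287, therefore came from 2 of the 4 high libraries, and the exact permutation P was 0.182. GZMB did not pass among the fertile libraries, with a log2FC of 0.77 and an unadjusted edgeR P of 0.343. With the fertility label as a second term it did not pass either (0.281). Of 2 gamma delta T cell markers, WC1-12 was lower, as given above. The markers of neutrophils, eosinophils and basophils, plasma cells and platelets that were tested included no gene called over the 12 libraries, and neither did the 5 genes of Th1 and Th2 helper cells. Beside these counts, 1.31% of all genes tested were called. No listed erythroid marker has a symbol in the tables.

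The platelet markers set the low fertile libraries apart. Their sum over 7 genes was 542 CPM in LM1244 and 10018 CPM in LM1330, the lowest but one and the highest of all, whereas the high libraries had 1604 to 2801 CPM. Of the 7 genes, GP5, a platelet surface glycoprotein, was called among the fertile libraries at the unadjusted thresholds, with a log2FC of -2.50 and an edgeR P of 0.0269, beside 3.14% of all genes tested. Over the 12 libraries its levels overlapped, with 0.198 to 1.45 CPM in the high and 0.0466 to 8.76 CPM in the low ones. The 8.76 CPM was that of LM1330, and the log2FC among the fertile libraries came mainly from this library. The summed interferon-stimulated genes also differed between LM1244 and LM1330, with 525 and 263 CPM against 313 to 368 CPM in the high libraries. Most of the sum in LM1244 came from a single gene, STAT2. It had 368 CPM there, against 115 to 124 CPM in the high libraries, so the sum does not stand for the 5 genes alike. None of the 5 interferon-stimulated genes was called over the 12 libraries, beside 1.31% of all genes tested. IRF7, which drives interferon production, had a log2FC of 0.46 there and 0.95 among the fertile libraries, with unadjusted edgeR P of 0.0838 and 0.0123. The other 4 had log2FC of 0.34 (IFI44L, under the fold threshold), -0.96 (STAT2), -0.58 (CXCL10) and -0.25 (EIF2AK2) among the fertile libraries and were not called, so that 1 of 5 passed there, beside 3.14% of all genes tested, and the median log2FC was -0.25. The part of the platelet and interferon levels in the fertile comparison was not tested.

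**Figure D5:**
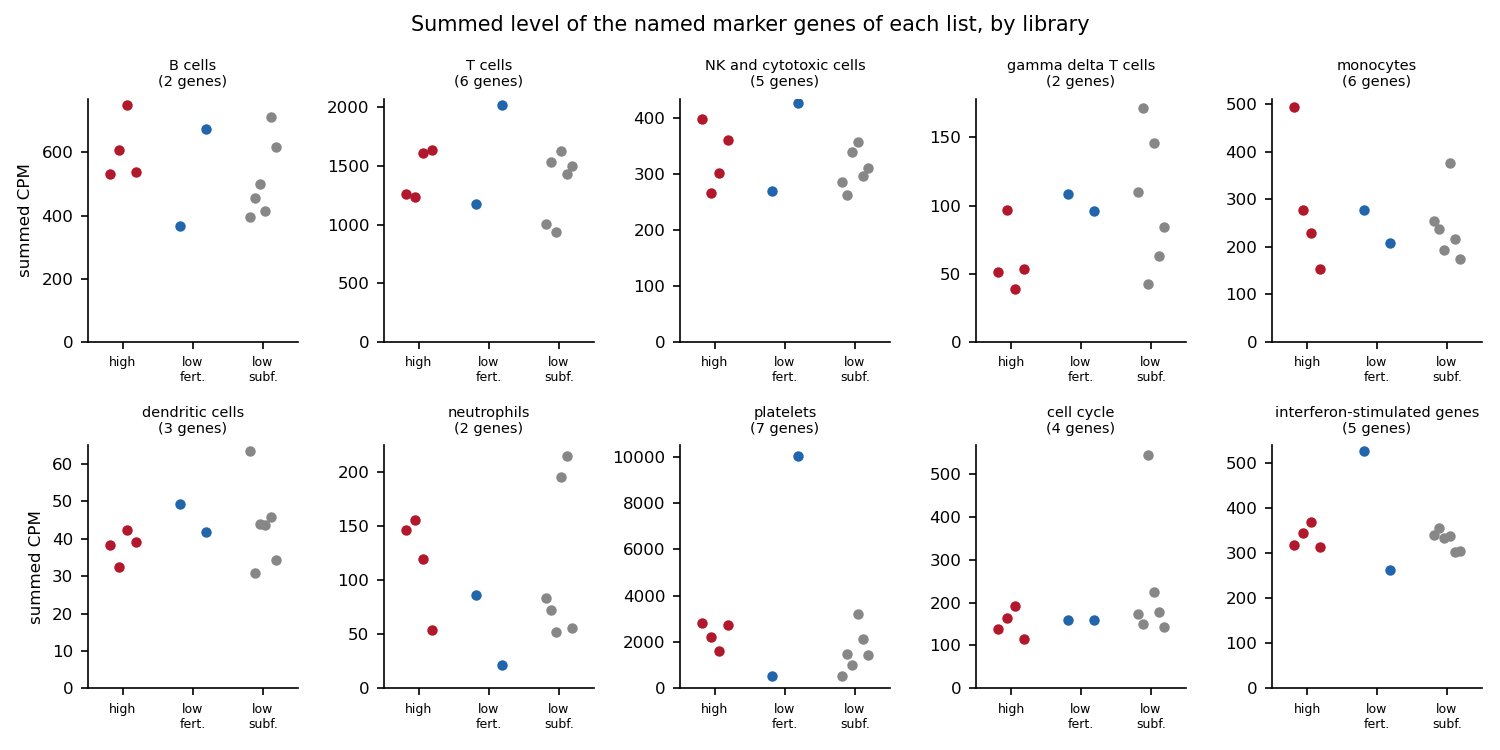
Summed TMM-scaled CPM of the tested genes of 10 lists, with a point for each library, in the high, low fertile and low subfertile groups. The groups overlap in all 10 lists, and LM1330 stands apart in the platelet genes at 10018 CPM and LM1259 in the cell cycle genes at 545 CPM.

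The high and low libraries overlapped in depth. The deposited counts summed to 14010736 to 21278761 in the high and 14574205 to 19416919 in the low libraries, with 15646 to 16251 and 15625 to 16323 genes detected. The most abundant gene held 3.06% to 7.13% of the counts in the high and 1.82% to 7.40% in the low libraries. A reproductive tract score of 5 was given to 1 high and 1 low heifer and a score of 4 to the others.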

How the data were processed

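The authors extracted RNA from the PWBCs of 12 heifers, built strand-specific poly(A) libraries and mapped the reads with STAR (2.7.5 per the submitters' notes) to ARS-UCD1.3 with Ensembl annotation. The deposited values are raw counts per gene (27607 genes), with no normalization; the strand column taken is not given in the sources used here. RNA was extracted in 1 batch and sequenced in 1 run, and the lane of each library was not used here. No 2 libraries of the 66 pairs were identical. P-values measure the spread between heifers, with 1 library each.

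The groups, gene lists and tests were chosen with earlier results of these data known. A script formed the groups from the BOLA-DQB count, and this gene was left out of every test. The filter was filterByExpr with the fertility groups and a minimum count of 10, which left 13012 genes; these were normalized with TMM and tested with edgeR 4.0.16 in R 4.3.3, adjusting over 13011 genes. Log2FC is high minus low. Calls used an adjusted P of 0.05, or an unadjusted P of 0.05 with an absolute log2FC of 0.5. Exact permutation tests were two-sided and used log2 CPM (prior count 2) over 495 splits of 12 libraries or 15 of the fertile 6. The named genes are the BOLA genes, the 8 genes higher and 8 lower with the smallest P among those past the P and fold thresholds, members of the class I and II lists that were called, neighbours without overlap, marker genes called at an adjusted P (none), and SNCB, LRATD1 and ENSBTAG00000047029; others are said to have been chosen after their values were seen, as were the genes listed in BOLA-DQB's pathways. Symbols and pathways came from the supplementary tables (2918 genes named); the neighbours came from RefSeq's ARS-UCD2.0 gene order.

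Alternatives were DESeq2 1.42.0, voom with limma 3.58.1, other scalings and filters, the fertility label, the reproductive tract score or continuous BOLA-DQB log2 CPM as a term, the Open libraries as the only low group, and each library left out. On simulated data, 200 of 13011 genes were changed, 103 of them 4-fold and 97 of them 2-fold. At 4 against 8 libraries edgeR recovered 91 and 60 of these, with 10 false calls. At 4 against 2 it recovered 77 and 19, with 9. In that data 658 unchanged genes had an unadjusted P of 0.05 or less at 4 against 8, and 563 at 4 against 2. The heifer libraries had 278 and 618 genes at that P. Whether the recovery holds for the heifer libraries was not tested.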

Additional observations from a re-analysis of the deposited data

Results flagged for a closer look

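Among 44 groups of 4 or 8 libraries examined for a sample far from the others, 4 had one. Some would arise by chance alone, and how many was not measured. The low library LM1283 had 22.7 CPM of ENSBTAG00000051879, against 7.29 to 11.7 CPM in the other low libraries and within the range of the high ones. The high library LM1262 had 0.727 CPM of ENSBTAG00000033197, against 0.977 to 1.01 CPM in the other high libraries, and 0 CPM of ENSBTAG00000019008, against 0.297 to 0.376 CPM. The low library LM1330, which also led in the platelet genes, had 63.7 CPM of SNCB, against 1.11 to 5.05 CPM in the other low libraries.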

How the results depend on the processing

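The absence of adjusted calls over 12 libraries held under every alternative run except that with all genes of at least 1 count, where 1 gene was called, ENSBTAG00000048393 (48, 81 and 144 counts in 3 high libraries, 0 in LM1298 and at most 1 elsewhere; adjusted edgeR P of 0.0166). The 170 genes at P and fold became 586 with that filter and 364 with the fertility label as a second term, and 139 to 247 when 1 library was left out. Among the fertile libraries, the single adjusted call became 19 with DESeq2, 0 when each library had to hold 10 counts, a filter that removes ENSBTAG00000038128, and 1 to 227 when 1 library was left out, and the 409 at P and fold became 317 to 1550. The 25 genes without overlap became 23 with RLE size factors, 18 with library size only and 26 with the filter given the high and low groups, and 30 to 85 when 1 library was left out. The last rise follows from having fewer libraries to separate and is no measure of stability. For single genes, ENSBTAG00000047029 turned to 0.0073 with the fertility label in the model, and SNCB, at -0.20, turned to 0.88 with voom, was -1.86 with the fertility label, and lay between -1.32 (without LM1298) and 1.78 (without LM1330) when 1 library was left out, with 0.09 and 0.12 without LM1247 and LM1262. ENSBTAG00000038128, at 3.16, was 7.59 with voom. Also with voom, LRATD1, at 2.71, was 1.04, and ENSBTAG00000047029, at -2.82, was -1.79. The causes were not tested. Of 355 values for 21 named genes, 337 kept their direction and side of the threshold, 13 lost the threshold and 5 reversed. Scaling by library size moved the median log2FC by -0.05. No paired analysis was possible because the labels carry no replicate numbers; those used here only name the libraries. The 2 low fertile libraries, and genes under about 1 CPM, limit what could be detected.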
